A study of Homo sapiens with 2 samples.

Results

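The 47 genes described here encode proteins that repair DNA or signal its damage, and their transcripts were measured in PC3, an established prostate cancer cell line derived from a metastasis, after knockdown of SUB1. SUB1 encodes a single-stranded DNA binding coactivator of transcription. The genes were taken from a list of names, matched to the gene names of the array by current symbol or older alias, and sorted into homologous recombination and Fanconi genes (17), mismatch repair genes (4), excision repair genes (17), end joining genes (5) and damage signalling genes (4). No measured value enters that rule, though the members were chosen with earlier results of these data known. Each of 2 dual-colour Agilent arrays compared PC3 cells treated with a SUB1 siRNA duplex (Cy5, siRNA 1 on one array and siRNA 2 on the other) with PC3 cells treated with non-targeting (Non-T) siRNA (Cy3). Every culture had been transfected, transfected again after 24 h and harvested 72 h after the first transfection, so the control cells carried transfection reagent and siRNA too. With 1 array per siRNA a value for one siRNA has no biological replicate, dye and siRNA cannot be told apart because no dye swap was made, and the sources used here do not state whether both arrays carried the same Non-T RNA.

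Cells meet different lesions with different machinery. Homologous recombination copies the sister chromatid to mend a double-strand break, the Fanconi proteins unhook crosslinked strands, mismatch repair corrects copying errors, excision repair cuts out damaged bases or short stretches, and end joining rejoins broken ends directly. The kinases ATM, ATR, CHEK1 and CHEK2 carry the signal from the lesion to the cell cycle. Many recombination and replication-linked repair genes are transcribed mainly in S phase under E2F transcription factors, whereas most excision repair genes are made throughout the cycle. In RNA from whole cultures, fewer cells of a type (here, fewer cells in S phase) and less RNA per cell cannot be told apart.

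Promoters are shown because many repair genes of S phase are known to carry E2F motifs near their start sites. The 4 members at least 2-fold lower on an array (RAD54L, BLM, FANCD2 and OGG1) are given with 250 bases before and 50 bases after the transcription start, from RefSeq on GRCh38.p14, all on the + strand. Capitals mark the letters of 3 motifs searched on both strands, which did not overlap in these 4 windows: the E2F motif (TTTCCCGC or TTTGGCGC, on the other strand GCGGGAAA or GCGCCAAA), the cell cycle homology region (TTTGAA, or TTCAAA) and the CCAAT box (CCAAT, or ATTGG). For RAD54L, which has more than 1 promoter in the table, the one with the lower coordinate is shown. The windows lie at chr1:46247438-46247737 (RAD54L), chr15:90717096-90717395 (BLM), chr3:10026187-10026486 (FANCD2) and chr3:9749702-9750001 (OGG1).
RAD54L: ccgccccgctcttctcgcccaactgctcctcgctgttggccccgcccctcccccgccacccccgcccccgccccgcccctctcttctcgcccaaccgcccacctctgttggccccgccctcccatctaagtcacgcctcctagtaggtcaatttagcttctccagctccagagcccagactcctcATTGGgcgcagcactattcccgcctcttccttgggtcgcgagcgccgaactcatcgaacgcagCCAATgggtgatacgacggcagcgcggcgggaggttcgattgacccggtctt
BLM: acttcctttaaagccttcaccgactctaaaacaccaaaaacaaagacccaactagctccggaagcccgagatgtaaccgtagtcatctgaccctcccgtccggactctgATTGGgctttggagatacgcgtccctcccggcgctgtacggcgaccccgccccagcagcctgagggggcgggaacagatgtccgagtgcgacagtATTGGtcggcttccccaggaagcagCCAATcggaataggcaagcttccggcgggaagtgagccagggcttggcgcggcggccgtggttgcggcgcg
FANCD2: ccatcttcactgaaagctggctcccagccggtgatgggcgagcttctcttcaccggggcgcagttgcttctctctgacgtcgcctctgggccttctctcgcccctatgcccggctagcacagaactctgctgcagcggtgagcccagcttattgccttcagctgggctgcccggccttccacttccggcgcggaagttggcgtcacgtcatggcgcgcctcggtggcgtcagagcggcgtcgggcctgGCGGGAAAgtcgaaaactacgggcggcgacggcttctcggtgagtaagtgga
OGG1: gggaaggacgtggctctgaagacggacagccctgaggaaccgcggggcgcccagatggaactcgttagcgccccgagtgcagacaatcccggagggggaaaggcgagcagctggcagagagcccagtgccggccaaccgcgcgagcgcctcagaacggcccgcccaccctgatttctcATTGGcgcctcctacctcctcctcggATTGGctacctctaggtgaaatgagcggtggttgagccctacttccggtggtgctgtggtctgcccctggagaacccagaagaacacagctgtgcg

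Of these 4 windows the FANCD2 window held the E2F motif, beginning 2 bases before the start site. Those of RAD54L, BLM and OGG1 held CCAAT boxes in one or both orientations and no E2F motif. A match is a run of letters and was not tested for binding.

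Among all members, 44 had at least 1 promoter in the table, 65 promoters in total. XRCC5, RAD54B and PRKDC had none. The E2F motif was present for 8 of the 44 members (18.2%), against 2.75% of all 27305 genes with a promoter and 3.7% of protein-coding genes. By promoter it was in 12.3% of those of members, against 2.27% of all 35116 promoters and 2.79% of the promoters of protein-coding genes. Of members known to be made mainly in S phase 4 of 15 held it, and of the other members 4 of 29. The CCAAT box was in 43.1% of member promoters and 34.6% of all, and TTTGAA in 9.23% and 15.2%. The 40 bases around each E2F motif, with the motif in capitals and the strand of the gene, show how near it lay to the start. They come from chr3:10026419-10026458 (FANCD2, +), chr19:48170435-48170474 (LIG1, -), chr2:47783132-47783171 (MSH6, +), chr7:152676097-152676136 (XRCC2, -), chr22:41621305-41621344 (XRCC6, +), chr5:80654529-80654568 (MSH3, +), chr9:95317732-95317771 (FANCC, -) and chr3:14178812-14178851 (XPC, -).
FANCD2: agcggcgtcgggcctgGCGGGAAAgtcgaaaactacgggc
LIG1: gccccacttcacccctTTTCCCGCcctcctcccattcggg
MSH6: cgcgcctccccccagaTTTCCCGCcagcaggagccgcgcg
XRCC2: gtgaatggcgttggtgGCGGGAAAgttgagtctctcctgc
XRCC6: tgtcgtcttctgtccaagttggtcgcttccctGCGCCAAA
MSH3: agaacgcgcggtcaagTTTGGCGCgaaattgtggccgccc
FANCC: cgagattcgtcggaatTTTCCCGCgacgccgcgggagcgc
XPC: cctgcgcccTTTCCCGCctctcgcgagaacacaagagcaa

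The motif began 2 bases before the start in FANCD2, and 3, 21 and 42 bases after it in MSH6, XRCC2 and XRCC6. In FANCC, MSH3, LIG1 and XPC it began 46, 107, 114 and 241 bases before the start. The log2 ratios of these 8 genes with siRNA 2 ran from -1.09 (FANCD2) to 0.13 (XPC), so some genes with the motif were well below 0 and others close to it.

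Throughout, log2 ratios are SUB1 siRNA over Non-T siRNA after normexp background correction and loess, and an intensity is the mean signal of a spot before either. A gene was read by its brightest probe among those well above background, and 45 of the 47 members had one. The exceptions were BRCA2, a mediator of homologous recombination, and ERCC4, the XPF nuclease subunit. The BRCA2 probe had intensities from 72.4 to 99.6 and the ERCC4 probe from 71.9 to 104 over both channels and arrays, so no ratio is given for either. As a check of the labels, SUB1 had log2 ratios of -3.30 and -3.26. The keratins KRT8 and KRT18 were well above background and the leukocyte gene PTPRC was not. Of 3 probes for KLK3, known to be low or absent in PC3, 1 was bright (15436 to 31523), which goes against that expectation. Another was well above background in Cy5 alone (87.7 and 89.5), and the third in neither channel. The share of gene spots called well above background was 54.3% for Cy3 on each array, and for Cy5 67.2% with siRNA 1 and 64.5% with siRNA 2. Over the 209 kept probes spotted 10 times, the median SD of the log2 ratio among spots was 0.078 and 0.074, which is technical error within an array.

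The repair genes had lower log2 ratios than genes in general on both arrays, with a median below 0 under every processing tried. With siRNA 1, 34 of 45 members had a log2 ratio below 0, against 46.0% of all 19218 genes, and the median of members was -0.22 against 0.02 for all genes. With siRNA 2, 33 of 45 were below 0, against 46.5% of all genes, with a median of -0.39 against 0.02. No member was 2-fold lower with siRNA 1 (0.609% of all genes were) and 4 were with siRNA 2 (8.89% of members, 1.07% of all genes). No member was 2-fold higher on either array, where 0.203% and 0.614% of all genes were. When the scanner software's processed intensities were used instead, siRNA 2 gave 5 members lower and 1 higher, the latter being ATM, whose Cy3 signal was not well above background. Under median centring RAD54L alone was 2-fold lower with siRNA 2 (BLM had -0.96, FANCD2 -0.92 and OGG1 -0.78), and with the mean of probes RAD54L and BLM were (FANCD2 had -0.82 and OGG1 -0.58). Median centring also turned the siRNA 1 ratios of some members above 0, among them MSH3, MSH6, LIG1, OGG1 and XRCC5 (0.04 to 0.20). It moved the siRNA 1 median of all genes to 0.13. A log2 ratio of -0.5 or less was found for 7 members with siRNA 1 (15.6%, 4.33% of all genes) and for 21 with siRNA 2 (46.7%, 6.07% of all genes). The plot of members by pathway shows these values.

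**Figure D1:**
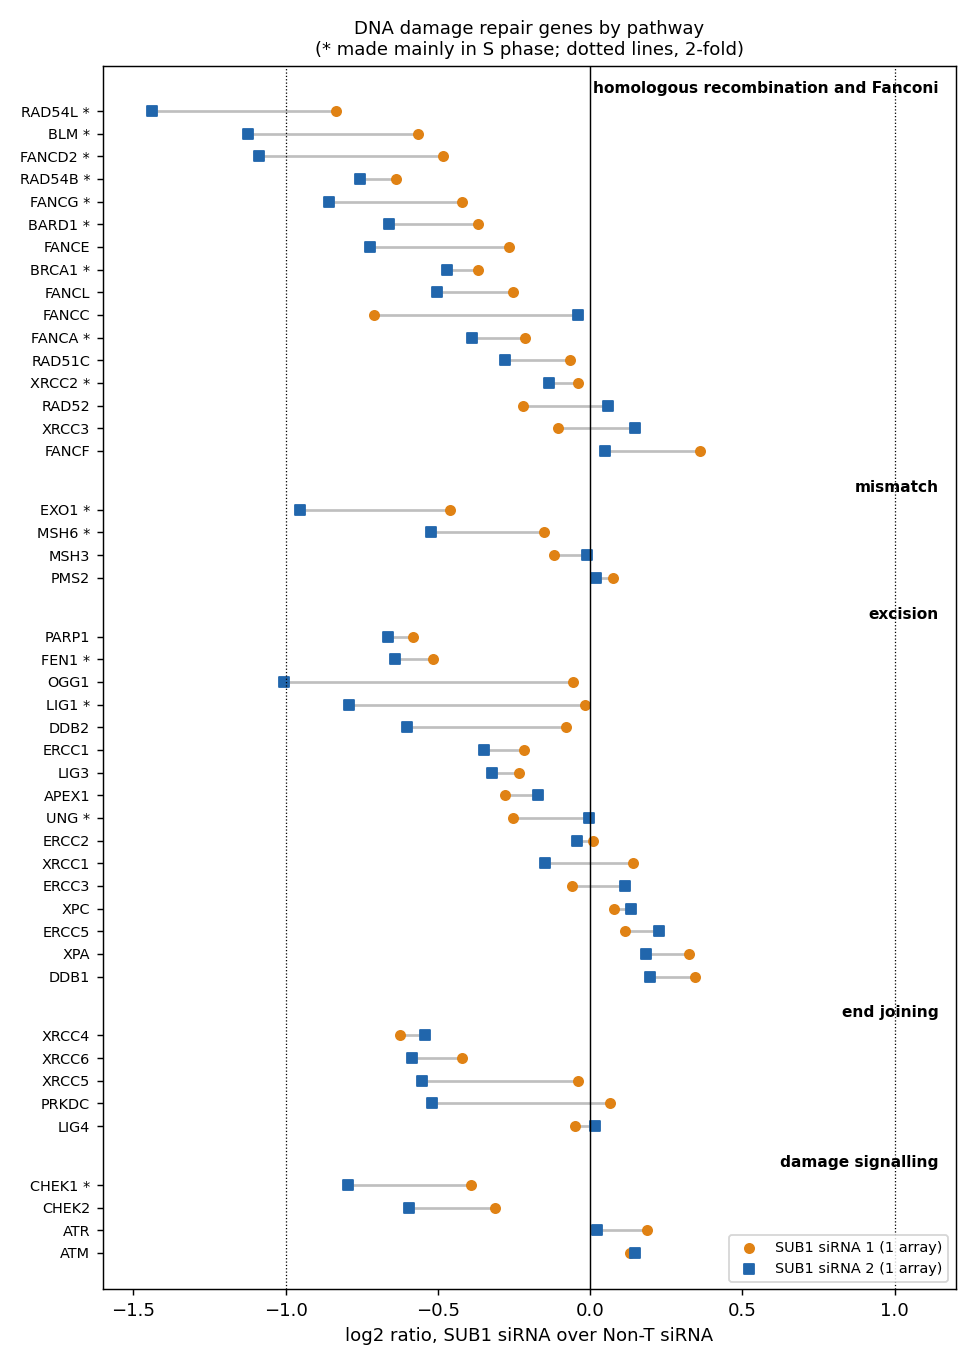
Log2 ratio over Non-T siRNA (x axis) for each of the 45 members measured, grouped by pathway and ordered by their mean. Circles are siRNA 1 and squares siRNA 2 (1 array each, no error bar), a grey line joins the arrays, an asterisk marks members made mainly in S phase and dotted lines mark 2-fold. The Cy3 signals of XRCC2, LIG4 and ATM were not well above background. The squares of RAD54L, BLM, FANCD2 and OGG1 lie past the line on the left and no symbol lies past the one on the right.

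The mean log2 ratio of both arrays was also tested against 0 with limma over all genes. No member passed an adjusted p of 0.05, where 1 gene of 19218 did (0.00520%), and the smallest adjusted p of a member was 0.114. At an unadjusted p under 0.05 there were 20 members, 19 of them lower, against 9.90% of all genes that were lower at that level. The 1 higher was DDB1, which encodes the adaptor of the ligase that recognises ultraviolet lesions. This test rests on 2 arrays, does not count how control cultures vary, and carries any dye bias.

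The largest difference among homologous recombination and Fanconi genes was that of RAD54L (NM_003579), a motor protein that promotes strand invasion in homologous recombination. Its 1 probe lies at chr1:46516625-46516684 (hg18, the build of the array's annotation). With siRNA 1 the intensity was 1016 (Cy3) and 674 (Cy5), and with siRNA 2 it was 792 and 337. The log2 ratios were -0.83 and -1.44, so that 56.1% and 36.9% of the Non-T signal was left. Its mean was -1.14 (SE 0.17, limma adjusted p = 0.114). RAD54L was the lowest member on both arrays. Its relative RAD54B had -0.64 and -0.76, with an SD of 0.054 and 0.055 among the spots of a probe printed 10 times.

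BLM (NM_000057), the helicase mutated in Bloom syndrome, had -0.56 with siRNA 1 and -1.12 with siRNA 2 (mean -0.84, SE 0.16, adjusted p = 0.130). Its Cy3 intensities were 520 and 436 on the arrays and its Cy5 intensities 398 and 230 (probe at chr15:89155804-89155863). The Cy5 signal of siRNA 2 was thus the lowest of the 4. FANCD2 (NM_001018115), the Fanconi protein that is ubiquitinated at a crosslink, had -0.48 and -1.09 (mean -0.79, SE 0.17, adjusted p = 0.138), with intensities of 530 (Cy3) and 440 (Cy5) for siRNA 1, and 471 and 252 for siRNA 2 (probe at chr3:10118526-10118585). A further kept probe of FANCD2 had -0.32 and -0.56. Both probes were below 0 on both arrays, and the dimmer one did not reach 2-fold.

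By the mean of both arrays, the other recombination and Fanconi genes lay nearer 0. BRCA1, which directs breaks to recombination, had -0.37 and -0.47, with SDs of 0.069 and 0.085 among 10 spots, and its partner BARD1 had -0.37 and -0.66. Of the Fanconi core complex, which ubiquitinates FANCD2, FANCG had -0.42 and -0.86, FANCE -0.27 and -0.72, FANCL, its ligase, -0.25 and -0.50, and FANCA -0.22 and -0.39. FANCF of the same complex stood apart with 0.36 and 0.05. These core genes differed in direction on the siRNA 1 array. RAD51C and XRCC3, which act together in recombination, lay nearer 0. RAD51C had -0.07 and -0.28, and XRCC3 -0.10 and 0.15 (intensities of 127 in Cy3 and 105 in Cy5, then 108 and 104; limma adjusted p = 0.930). RAD52, an annealing protein, had -0.22 and 0.06, from intensities of 149 and 118, then 124 and 118 (adjusted p = 0.715). Both were dim, and both had ratios of opposite sign on the arrays. The Cy3 signal of XRCC2 was not well above background and its measured log2 ratios were -0.04 and -0.13. Over the 16 genes with a ratio, 15 were below 0 with siRNA 1 (median -0.32, and -0.19 under median centring) and 13 with siRNA 2 (median -0.49, and -0.74 with processed intensities).

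FANCC, another core gene, showed the reverse order of the siRNAs. Its brightest probe had -0.71 with siRNA 1 and -0.04 with siRNA 2, from intensities of 1976 (Cy3) and 1471 (Cy5) on the first array and 1673 and 2001 on the second. The limma adjusted p of its mean was 0.322. The other 2 kept probes gave 0.10 and 0.22 with siRNA 1, and -0.16 and 0.26 with siRNA 2. The low value with siRNA 1 was therefore seen with 1 of 3 probes.

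**Figure D2:**
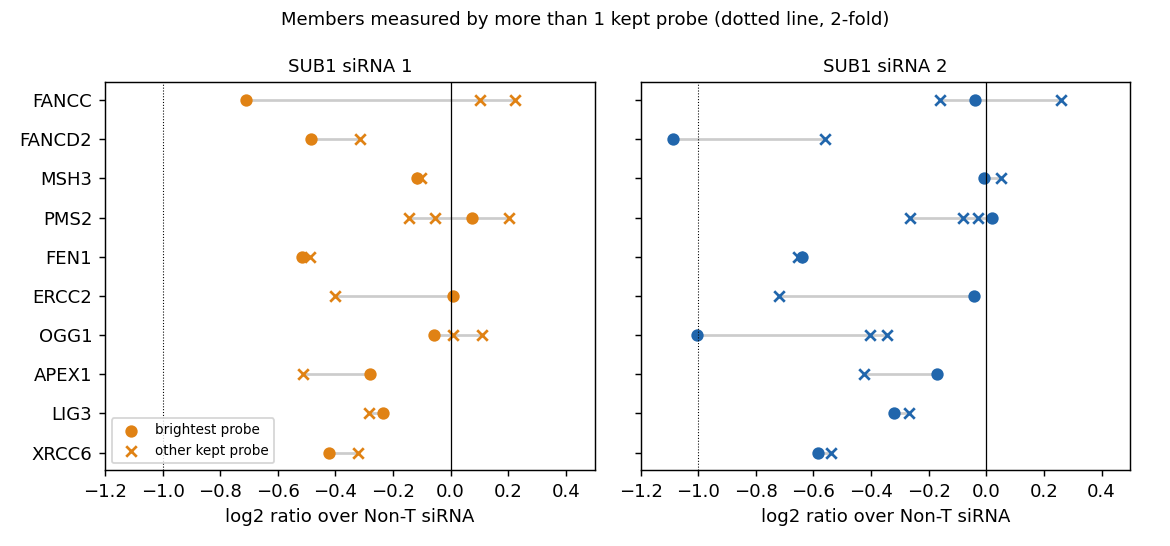
Log2 ratio over Non-T siRNA (x axis) of each kept probe of the 10 members measured by more than 1, with SUB1 siRNA 1 on the left and siRNA 2 on the right. Circles are the brightest probe, which stands for the gene, crosses the other kept probes, and the dotted line marks 2-fold. FEN1, LIG3 and XRCC6 have probes close together, whereas those of FANCC with siRNA 1 and of OGG1 and ERCC2 with siRNA 2 lie far apart.

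In mismatch repair, EXO1 and MSH6 had lower log2 ratios with siRNA 2 than MSH3 and PMS2. EXO1, which removes the strand that carries the error, had -0.46 with siRNA 1 and -0.95 with siRNA 2 (SD among 10 spots 0.12 and 0.082, mean -0.71, SE 0.15, adjusted p = 0.137). Its Cy3 intensities were 678 and 584 and its Cy5 intensities 574 and 347. MSH6, which detects single mismatches, had -0.15 and -0.52 (mean -0.34, SE 0.13, adjusted p = 0.244), its Cy5 intensity being 3951 and 2758 beside 3508 and 3157 in Cy3. MSH3, which detects loops, had -0.12 and -0.0095 (mean -0.06, SE 0.098, adjusted p = 0.739), with 370 and 339 in Cy5 beside 359 and 307 in Cy3. PMS2, the nuclease subunit, had 0.08 and 0.02 by its brightest probe. Its 4 probes lay between -0.15 and 0.20 (siRNA 1) and between -0.27 and 0.02 (siRNA 2), and since PMS2 has near-identical pseudogenes its values are uncertain. EXO1 and MSH6 are made mainly in S phase, MSH3 and PMS2 are not.

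The excision repair genes were split between members with low ratios and members close to or above 0. Of 16 with a ratio, 10 were below 0 with siRNA 1 (median -0.06) and 11 with siRNA 2 (median -0.16). Both medians turned above 0 under median centring, to 0.16 and 0.0375, where the median of all genes was 0.13 and 0.12. The excision median with siRNA 1 was -0.0076 with the authors' log2 ratios. With siRNA 2 it was -0.30 with the mean of probes and -0.24 with processed intensities. The lowest mean was that of PARP1, the sensor of single-strand breaks, with -0.58 and -0.66 (SD among 10 spots 0.064 and 0.058, mean -0.62, SE 0.096, adjusted p = 0.115). Its intensities were 5892 (Cy3) and 5012 (Cy5) with siRNA 1, and 5060 and 4081 with siRNA 2. The siRNAs gave PARP1 ratios that differed by 0.08. FEN1, the flap endonuclease of replication and long-patch base excision, had -0.52 and -0.64 (mean -0.58, SE 0.099, adjusted p = 0.119), and its other probe had -0.49 and -0.65. The FEN1 intensities were 721 and 583 in Cy3, and 590 and 438 in Cy5.

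OGG1 (NM_016819), the glycosylase that removes oxidised guanine, had -0.06 with siRNA 1 and -1.005 with siRNA 2, the largest difference between siRNAs among the members. Its Cy3 intensities were 1328 and 1070, and its Cy5 intensities 1545 and 638 (probe at chr3:9774021-9774080, limma adjusted p of the mean 0.296). The other 2 probes of OGG1 had 0.01 and 0.11 with siRNA 1 and -0.34 and -0.40 with siRNA 2. All 3 probes were thus lower with siRNA 2 than with siRNA 1, and 1 of them passed 2-fold. LIG1, the ligase that seals Okazaki fragments and repair gaps, had -0.02 and -0.79, with Cy5 intensities of 927 and 458 beside Cy3 intensities of 789 and 669 (adjusted p = 0.333). DDB2, which recognises ultraviolet lesions, had -0.08 and -0.60.

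Nucleotide excision genes mostly lay near or above 0. The damage verifier XPA had 0.32 and 0.18, DDB1 0.34 and 0.20, the nuclease gene ERCC5 0.11 and 0.23, and the damage sensor XPC 0.08 and 0.13. None of these reached 2-fold. The TFIIH helicase ERCC3 had -0.06 and 0.12, and ERCC2, the other helicase, 0.01 and -0.04 by its brightest probe but -0.40 and -0.72 by its other probe. ERCC1, the partner of the XPF nuclease, had -0.22 and -0.35. In base excision, the glycosylase UNG had -0.25 and -0.004, and the endonuclease APEX1 -0.28 and -0.17, with -0.51 and -0.42 by its other probe. The scaffold XRCC1 had 0.14 and -0.15, whereas its ligase LIG3 had -0.24 and -0.32.

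Among end joining genes the Ku subunits and XRCC4 had ratios below 0, XRCC5 with siRNA 1 by less than the spread among spots. XRCC4, the partner of ligase IV, had -0.62 and -0.54 (mean -0.58, SE 0.096, adjusted p = 0.115), with intensities of 531 (Cy3) and 388 (Cy5) with siRNA 1 and 440 and 343 with siRNA 2. XRCC6, which encodes Ku70, had -0.42 and -0.59 (mean -0.50, SE 0.10, adjusted p = 0.134), and its other probe -0.32 and -0.54. The brighter probe read 18567 and 16481 in Cy3, and 18819 and 15068 in Cy5. XRCC5, which encodes Ku80, the other subunit of the ring that binds broken ends, had -0.04 and -0.55 (mean -0.30, SE 0.15, adjusted p = 0.338), from 1628 and 915 in Cy5 beside 1377 and 1119 in Cy3. PRKDC, the kinase that Ku recruits, had 0.07 and -0.52. XRCC5 and PRKDC were thus close to 0 with siRNA 1 and below -0.5 with siRNA 2. LIG4, the ligase, had measured ratios of -0.05 and 0.02 with a Cy3 signal that was not well above background, so no fold is given.

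In damage signalling the checkpoint kinases CHEK1 and CHEK2 had log2 ratios below 0 on both arrays, under every processing tried. CHEK1 had -0.39 and -0.80 (mean -0.59, SE 0.13, adjusted p = 0.142), from Cy5 intensities of 759 and 493 and Cy3 intensities of 843 and 731. CHEK2 had -0.31 and -0.60 (mean -0.45, SE 0.12, adjusted p = 0.157; 354 and 293 in Cy3, 314.5 and 213 in Cy5), and since pseudogenes carry parts of its sequence its values are uncertain. ATR, which responds to stalled forks and activates CHEK1, had 0.19 and 0.02. ATM, which responds to breaks and activates CHEK2, was well above background in Cy5 alone (97.9 and 83.8, beside 106 and 91.4 in Cy3). The Cy5 level of ATM was set against its own Cy3 level or the lowest Cy3 level among probes well above background, whichever was higher. For the siRNA 1 array this gave 1.095-fold, which is the measured ratio itself (log2 0.13). It is not a lower limit, since median centring gave a log2 ratio of 0.089 there. The limma adjusted p of the ATM mean was 0.446. On the siRNA 2 array the same comparison fell under 1 and no fold is given, as for XRCC2 and LIG4 on both arrays.

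The members made mainly in S phase were set from textbook knowledge, but with earlier results of these data known. They had lower medians than the rest. All 15 with a ratio, among them XRCC2 with its dim Cy3 signal, were below 0 on both arrays, against 30.4% of all genes. The S-phase gene BRCA2 had no ratio. UNG with siRNA 2 (-0.004), and LIG1 (-0.02) and XRCC2 (-0.04) with siRNA 1, were below 0 by less than the spread among spots. With siRNA 1, 14 of 15 were below 0 when median intensities, processed intensities or the authors' log2 ratios were used, where LIG1 was above 0. Their median was -0.39 with siRNA 1 and -0.76 with siRNA 2, against -0.06 and -0.095 for the 30 other members. With the mean of probes the median of the other members was -0.21 with siRNA 2. A log2 ratio of -0.5 or less was found for 4 of 15 and 3 of 30 with siRNA 1 (4.33% of all genes). With siRNA 2 it was found for 11 of 15 and 10 of 30 (6.07% of all genes). The other members were not all near 0: PARP1, XRCC4, XRCC6, FANCE and CHEK2 had low values too. The siRNA 1 ratios of XRCC6 and FANCE rose to -0.04 at the highest among the processings tried. Under median centring instead of loess, which moved the median of all genes to 0.13 and 0.12, the S-phase members lay 0.36 and 0.69 below that median, and 13 (siRNA 1) and 14 (siRNA 2) of 15 were below 0. Under the same centring the medians of the other members turned above 0, to 0.10 and 0.070. No test was made of the S-phase members against the others, because genes are not replicates.

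**Figure D3:**
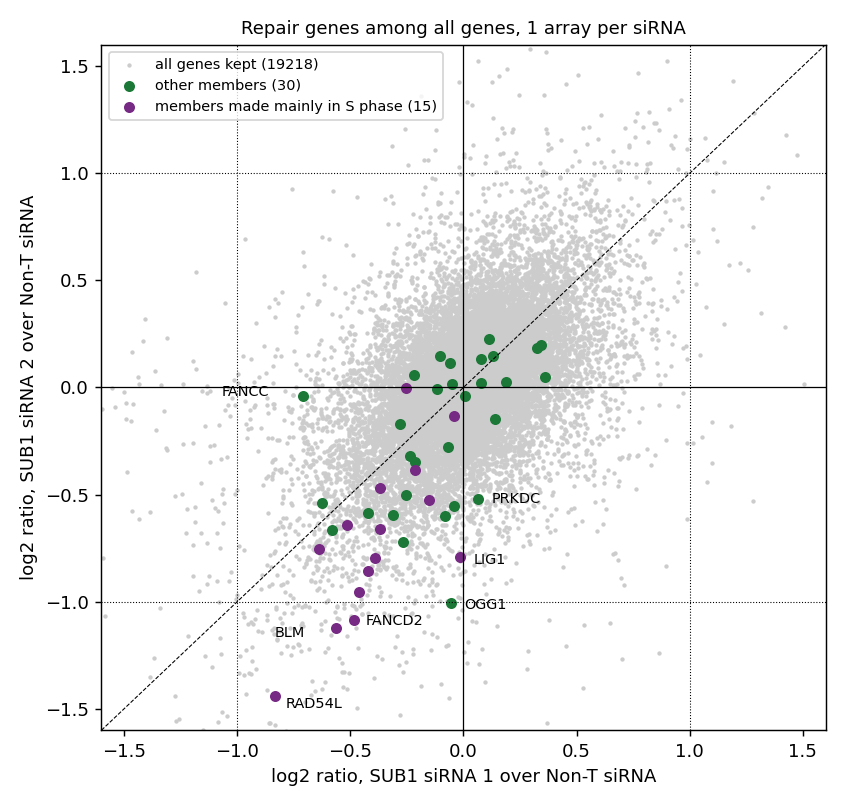
Log2 ratio with SUB1 siRNA 1 (x axis) and with SUB1 siRNA 2 (y axis) for the 45 members, over all 19218 genes in grey (61 of them lie outside the axes). Purple points are members made mainly in S phase and green points the others, dotted lines mark 2-fold and the dashed line equal ratios. Both arrays used Non-T siRNA as control, so the axes are not independent. Of the 15 purple points, 14 lie below the dashed line.

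The siRNAs differed in size for many members. The log2 ratio was lower with siRNA 2 than with siRNA 1 for 33 of 45 members, against 50.4% of all genes, and lower by 0.5 or more for 8 (17.8%, 4.81% of all genes). These were OGG1, LIG1, RAD54L, FANCD2, PRKDC, BLM, DDB2 and XRCC5. The 3 largest differences were those of OGG1 (-0.95), LIG1 (-0.78) and RAD54L (-0.60). In the other direction they were those of FANCC (0.67), RAD52 (0.28) and XRCC3 (0.25). That of FANCC was seen with its brightest probe, 1 of 3, and not with the others (0.10 and -0.16, and 0.22 and 0.26). With 1 array per siRNA, a difference between duplexes and one between cultures or arrays cannot be told apart.

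Each channel was also compared between the arrays. For the 45 members the normalized Cy3 level, that of Non-T cells, differed between arrays by -0.28 to 0.18 (log2), with a median of -0.02 and an SD of 0.098. The Cy5 level, that of SUB1 siRNA-treated cells, differed with a median of -0.20 and an SD of 0.33. For OGG1 the differences were -0.10 in Cy3 and -1.04 in Cy5, for LIG1 -0.02 and -0.79, and for FANCC -0.004 and 0.67, each by its brightest probe. FANCE had the largest change in Cy3, -0.28, beside -0.74 in Cy5. The spread among members between arrays lay mostly in the channel of SUB1 siRNA-treated cells. It was not set beside the spread of all genes, and it is not known whether both arrays carried the same Non-T RNA.

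**Figure D4:**
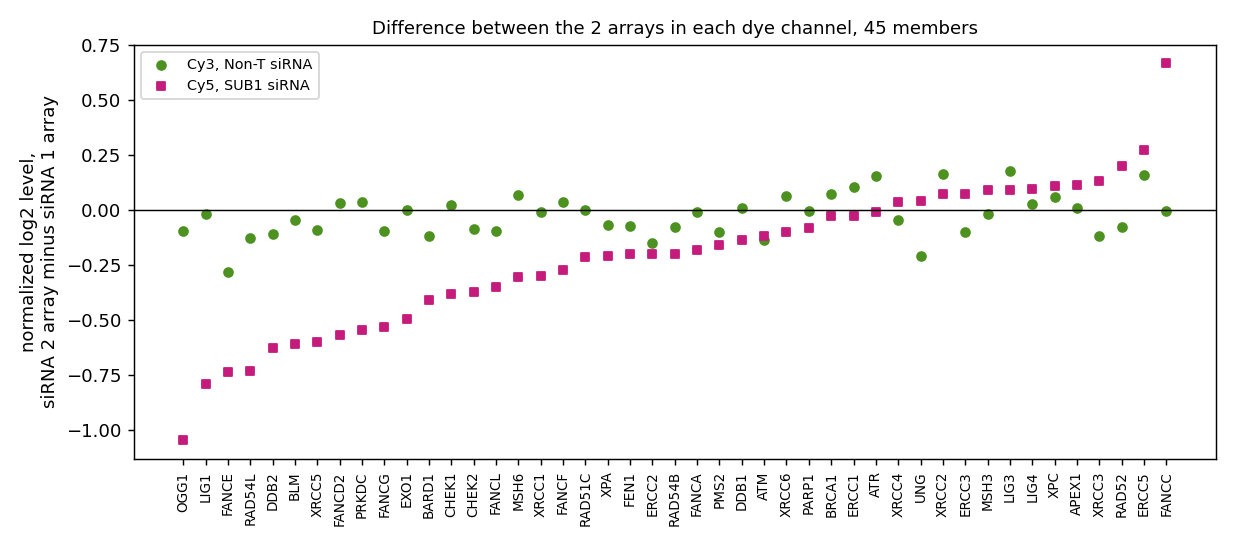
Difference between the siRNA 2 array and the siRNA 1 array in normalized log2 level (y axis) for each of the 45 members (x axis, ordered by Cy5), with Cy3 (Non-T siRNA) as circles and Cy5 (SUB1 siRNA) as squares. Circles lie between -0.28 and 0.18, and the squares run from -1.04 (OGG1) to 0.67 (FANCC), each by its brightest probe.

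The members were set beside 3 lists of related genes. Of 85 other repair genes, 84 had a ratio, and their median was -0.15 with siRNA 1 and -0.13 with siRNA 2, with 2 at least 2-fold lower with siRNA 2 (2.38%). By the same rule there were 3 of 23 origin licensing genes (13.0%) and 1 of 18 DNA polymerase genes (5.56%), against 1.07% of all genes. FANCI, the partner of FANCD2, had -0.93 and -1.10, and H2AFX, the histone marked at breaks, -0.78 and -1.21. Of 23 origin licensing genes, the median was -0.34 and -0.43, led by CDT1 (-0.97 and -1.34), CDC45L (-0.68 and -1.22) and MCM7 (-0.83 and -1.02). Of 18 DNA polymerase genes, the median was -0.33 and -0.41, led by PRIM1 (-0.47 and -1.04), POLE2 (-0.54 and -0.88) and RFC4 (-0.73 and -0.68). The median of the S-phase members lay below all 3 of these medians on both arrays and that of the other members above the 2 replication lists on both arrays. With siRNA 1 the S-phase median (-0.39) was close to those of the 2 replication lists. The 3 lists were not narrowed to genes made mainly in S phase, so this order does not compare like with like. These are descriptions of the lists, with no test between them.

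**Figure D5:**
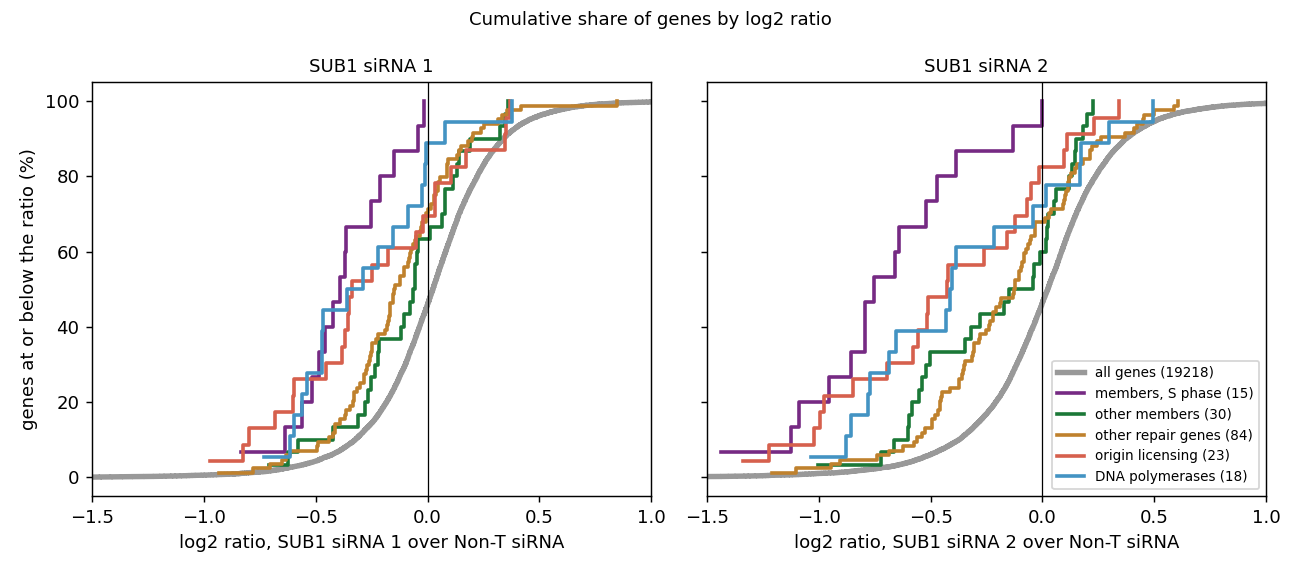
Cumulative share of genes (y axis, percent) at or below a log2 ratio (x axis), for SUB1 siRNA 1 on the left and siRNA 2 on the right. Lines are all genes, the members made mainly in S phase, the other members and 3 lists of related genes, with the number of genes in brackets. The S-phase members have the lowest median on both arrays, and reach their highest value just below 0. The 3 lists were not narrowed to S-phase genes. Their line crosses others at low ratios. With siRNA 1, 26.7% of them and 27.8% of DNA polymerase genes were at -0.5 or less.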

How the data were processed

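RNA of PC3 cells was hybridised to 2 dual-colour arrays of 1 slide, scanned together. The authors quantified the arrays with Agilent Feature Extraction 9.5.1.1 and deposited, per spot, the mean and median intensity of both channels, the local background and the processed intensity, and, as a table, log2 ratios per probe after loess. Here, mean intensities had the median local background corrected by normexp (offset 50) and were normalized by within-array loess (span 0.3, control spots at weight 0) with R 4.3.3 and limma 3.58.1. Spots flagged as outliers (112 and 100) were excluded and those of a probe averaged. Probes needed 0.5 of their spots well above background, in 1 channel or more and on both arrays, leaving 25673 of 41000 probes and 19218 genes, of which 13129 were named through RefSeq. The brightest probe stood for a gene. For the comparison of each channel between arrays, average intensities were also quantile normalized between the arrays. The deposited log2 ratios correlated at 0.958 and 0.970 across probes with Cy5 over Cy3, computed from median intensities, and served as an alternative. A gene was called at an absolute fold change of 2 on an array, the rule of the study's methods, and the mean of both arrays was tested with limma (Benjamini-Hochberg over all genes). Tested on simulated data, that fit called more unchanged genes than its threshold allows, so its adjusted p-values can be too small. Samples were grouped by the labels. The arrays had no saturated gene spots, and the number of arrays limits precision. Nothing says that the cultures were separate ones. The members and lists were chosen with earlier results of these data known. Members 2-fold changed, the 3 largest means per pathway, the 3 largest differences between siRNAs in each direction, and the 3 largest means of each related list were named in full, and every other member by its ratios; 1 gene of a related list and 1 marker gene are not reported here. The alternatives were no background correction, median intensities, median centring, processed intensities, the authors' log2 ratios, the mean of probes, other filters on dim probes, and kept outlier spots. The sequencing, PCR, blot and ChIP experiments of the study were not analysed here.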

Additional observations from a re-analysis of the deposited data

How the results depend on the processing

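The values recomputed under the alternatives were counts of members, medians of groups, and ratios of SUB1 and of the members named in full. Of 548 such values, 506 were classed as unchanged. For these, single genes kept their side of the 2-fold rule and medians moved by less than the spread among spots. A single gene far from 2-fold could thus move much and still be classed as unchanged. With siRNA 1, MSH6 went from -0.15 to 0.115 under median centring, and FANCC from -0.71 to -0.13 with the mean of probes. Counts of members were allowed a small change, such as from 4 to 3 or 5 members 2-fold lower with siRNA 2. No value past 2-fold changed sign. Among the smaller of these 548 values 23 did, 12 of them under median centring, and all 23 were within 0.16 of 0 as reported. Members outside the 548 values changed sign from further out. ERCC1 with siRNA 1 (-0.22) rose to 0.0002 and APEX1 with siRNA 2 (-0.17) to 0.067 at the highest setting. Members 2-fold lower with siRNA 2 numbered 4, but 1 under median centring (RAD54L) and 2 with the mean of probes (RAD54L and BLM). With processed intensities 1 member, ATM, was 2-fold higher with siRNA 2. The median of members was -0.042 (siRNA 1) and -0.25 (siRNA 2) under median centring, where the median of all genes was 0.13 and 0.12. With siRNA 2 it was -0.54 with processed intensities, -0.46 with the authors' log2 ratios and -0.49 with the stricter filter, which left 42 members. For median centring the median of mismatch genes was 0.079 with siRNA 1, that of excision genes 0.16 and 0.0375, and that of members not made mainly in S phase 0.10 and 0.070, in each case turned from below 0. The cause was not tested. Members past the adjusted p remained 0 in number under all 10 alternatives, with 16 to 24 members at an unadjusted p under 0.05 and the smallest adjusted p from 0.0559 to 0.175. Of the members below 0, 24 of 34 with siRNA 1 and 27 of 33 with siRNA 2 were below 0 under every setting, and 31 and 31 when median centring was set aside. OGG1 was 2-fold lower with siRNA 2 under 5 of 10 settings, the one reported included. No paired analysis was possible because each siRNA has 1 array. Leaving out an array left no residual degrees of freedom, and slide could not be a block, since both arrays shared it.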
